A study of Mus musculus with 24 samples.

Results

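The genes *Tff1*, *Tff2* and *Tff3* for trefoil factors, *Muc1*, *Muc4*, *Muc13* and *Muc20* for mucins, *Agr2* for a protein that folds mucins, and *Chil3* and *Chil4* for chitinase-like proteins were followed in mouse liver cells. They were found by symbol, and all 10 of them are among the 49566 genes of both the homeostasis and the transwell experiment. The list was drawn up around 1 contrast of the transwell experiment, co-cultured organoids against organoids in expansion medium (EM), in which *Chil4* and *Tff3* lay far apart. Values in that contrast are therefore a description of how the genes were chosen, and none of the 10 genes was tested in it.

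In the transwell experiment, EpCAM+ ductal cells (DCs) and SCA1+ mesenchymal cells (SCA1+Msc) came from wild type C57BL/6 mice of 8 to 12 weeks. DCs were sequenced freshly sorted (day 0), after 15 days alone in EM, which carries growth factors (EM organoids), or after 15 days on a transwell insert above SCA1+Msc in mesenchymal medium (MM) without those factors (co-cultured organoids). SCA1+Msc were sequenced at day 0, after culture alone in MM and after the same co-culture, with 2 replicates in each of the 6 groups. According to the methods the gate for SCA1+Msc took SCA1+ cells without CD31, CD45 or CD11b and left out PDGFRα, and the cells were expanded in MM before DCs were added. The paper gives MM as a medium with added WNT3A and, in its results, FBS. Neither is listed for its standard EM, although newly isolated DCs were started in EM with WNT3A. Medium and stroma changed together between EM and co-cultured organoids and cannot be told apart. DCs kept in MM without stroma grew little in the paper and could not be sequenced, so no such samples exist here. In the homeostasis experiment, DCs were sorted together with PDGFRα-SCA1+, PDGFRα+SCA1- and double positive PDGFRα+SCA1+ cells from healthy livers of 3 littermates of 12 weeks (A, E and F), which were heterozygous for the *Pdgfra*-H2B-EGFP allele, a nuclear reporter of *Pdgfra* expression, on a C57BL/6 background.

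Values are TPM, which count transcripts per gene length and scale every sample to the same total, in the transwell experiment and the deposited values, which lie close to TPM, in the homeostasis experiment. The depth was 19.3 to 28.1 M reads per sample in the former and 19.6 to 25.7 M in the latter. All 10 ductal markers, *Epcam*, *Krt19* and *Sox9* among them, were above 0 in each ductal sample, with summed values of 54472 to 90793 TPM in the transwell experiment. Mesenchymal markers summed to 3.10 to 20.4 TPM in the 4 organoid samples. In this bulk RNA, fewer cells of a type and less RNA per cell cannot be told apart.

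Trefoil factors are small, disulfide-rich peptides that epithelia secrete together with mucus and that are known for their part in the repair of mucosal surfaces. TFF1 and TFF2 are known mainly from the stomach, and TFF3 from goblet cells of the intestine and from bile ducts. MUC1, MUC4, MUC13 and MUC20 are mucins of the cell surface, large O-glycosylated proteins that are anchored in the membrane, unlike gel-forming mucins such as MUC2, MUC5AC and MUC5B. AGR2 is a disulfide isomerase of the endoplasmic reticulum that secretory epithelia need to fold mucins. CHIL3 (also Ym1) and CHIL4 (also Ym2) are rodent proteins that resemble chitinases without cleaving chitin, and they are known from macrophages and from epithelia in type 2 immune responses.

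*Chil3* and *Chil4* are close copies on the minus strand of chromosome 3 (GRCm38), at chr3:106147554-106167564 and chr3:106201490-106219507. Whether reads of both can be told apart decides how their values can be read, so sequences of both genes are shown. Their coding sequences in GENCODE M21 span 1197 and 1209 bases, and 56 substitutions lie in 1197 aligned bases, which gives an identity of 95.3%. The window of 50 coding bases with 10 differences, from coding base 510 to 559, is written below with the bases that differ in capitals, and it is as long as 1 sequencing read.
Chil3: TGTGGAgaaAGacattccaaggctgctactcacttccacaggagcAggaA
Chil4: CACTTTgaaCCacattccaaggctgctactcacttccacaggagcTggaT
A read from this window belongs to only 1 of the genes, whereas the longest stretch without a difference has 136 coding bases. Over the whole transcripts, 304 of 2763 windows of 50 bases of *Chil4* (11.0%) and 438 of 1629 of *Chil3* (26.9%) occur in another gene, and 275 of them are shared by both. The remaining windows of this kind lie in *Gm6522*. Reads with several equal places were dropped by the filter on mapping quality, so that such windows are lost to both genes.

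The bases upstream of both genes are also near copies. For each gene 222 bases that end 1 base before the annotated start are shown, from the RefSeq table of GRCm38.p6, on the minus strand, at chr3:106167565-106167786 for *Chil3* and chr3:106219508-106219729 for *Chil4*. Capitals mark bases that differ or have no partner.
Chil3: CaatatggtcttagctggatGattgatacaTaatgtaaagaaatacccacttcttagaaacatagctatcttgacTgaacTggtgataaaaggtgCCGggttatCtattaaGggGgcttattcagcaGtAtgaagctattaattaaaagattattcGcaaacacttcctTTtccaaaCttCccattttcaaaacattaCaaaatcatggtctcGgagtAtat
Chil4: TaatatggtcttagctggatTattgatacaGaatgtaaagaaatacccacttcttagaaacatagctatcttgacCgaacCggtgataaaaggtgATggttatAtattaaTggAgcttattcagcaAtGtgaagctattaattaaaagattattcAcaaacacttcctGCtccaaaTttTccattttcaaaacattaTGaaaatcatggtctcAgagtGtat
Of 223 aligned columns, 201 were identical (90.1%), 20 were substitutions and 2 were gaps, and the longest run without a difference was 44 bases. The motif TTCNNNGAA, the core that many STAT proteins bind, was searched on both strands in the 250 bases before each start. It was found for *Chil3*, for *Chil4* and for 1 of 2 entries of *Muc13*, and for none of *Muc1*, *Muc4*, *Muc20* and *Agr2*, against 7.02% of 32851 entries of the table. The form with 4 in place of 3 free bases between the same outer bases, which STAT6 is known to prefer, was found in 5.85% of all entries and for none of the 7 genes with an entry. A match of this kind is a match of letters in the reference and no measurement of binding.

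*Chil4* had the widest gap between co-cultured and EM organoids of the 10 genes. It stood at 2.60 and 6.24 TPM in DCs at day 0, at 0.45 and 0.06 TPM in EM organoids and at 3102 and 1657 TPM in co-cultured organoids. In reads, this was 9 and 1 in EM organoids against 78165 and 35169 in co-cultured organoids, so that the level in EM organoids rests on few reads and the ratio of the group means, 9450, is imprecise. The lower co-cultured sample was 3700 times as high as the higher EM sample, and the co-cultured samples differed 1.87-fold from each other. On the scale of log2(TPM + 1) the difference of the group means was 10.84 with an SD within groups of 0.51. Both EM organoids were below both samples of fresh DCs, with a difference of log2(TPM + 1) of -2.05, and this was not tested, since the gene was chosen for its level in organoids.

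*Chil3* stayed far below its copy. It had 1.07 and 0 TPM in fresh DCs, 0 and 0 TPM in EM organoids and 11.4 and 2.36 TPM in co-cultured organoids. With 166 and 29 reads, *Chil3* amounted to 0.212% and 0.0825% of the *Chil4* reads in co-cultured organoids, shares that differ between the replicates. Conversely, SCA1+Msc at day 0 had 108 and 0 reads of *Chil3* with 0 reads of *Chil4* in both samples. The neutrophil genes *S100a9* (95.7 and 9.40 TPM) and *S100a8* (21.4 and 0.57 TPM), which are named here after their values were seen, were also higher in the first co-cultured sample than in the second. Of the other 10 neutrophil markers, *Ly6g*, *Ngp*, *Camp*, *Mpo*, *Elane*, *Retnlg*, *Cxcr2* and *Csf3r* were listed at 0 in both co-cultured samples. The others, *Ltf* and *Itgam*, were above 0 in both. *Ltf* had 661 and 337 TPM there and 457 and 445 TPM in EM organoids. *Itgam* was at 0 in EM organoids and reached 1 TPM only in the first co-cultured sample. The part of neutrophils in the *Chil3* values was not tested.

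The trefoil genes lie side by side on the minus strand of chromosome 17 (GRCm38), *Tff3* at chr17:31125306-31129646, *Tff2* at chr17:31141049-31144282 and *Tff1* at chr17:31161395-31165277. *Tff3* stood at 0.24 and 0 TPM in DCs at day 0, at 15.6 and 6.03 TPM in EM organoids and at 8380 and 8175 TPM in co-cultured organoids. Fresh DCs thus had 1 and 0 reads of the gene, EM organoids 55 and 19, and the 3 ductal groups did not overlap. The difference of co-cultured and EM organoids was 9.58 in log2(TPM + 1) with an SD within groups of 0.62, or 764-fold between the means. The co-cultured replicates agreed within 1.03-fold, whereas the EM replicates differed 2.59-fold.

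*Tff1* was listed at 0 in both samples of fresh DCs, at 0.29 and 2.95 TPM in EM organoids and at 1650 and 767 TPM in co-cultured organoids. Here the difference of co-cultured and EM organoids in log2(TPM + 1) was 8.96 with an SD within groups of 0.98, and the lower co-cultured sample was 260 times as high as the higher EM sample. *Tff2*, by contrast, was already present in DCs before culture. Its levels were 74.0 and 82.4 TPM at day 0, 156 and 183 TPM in EM organoids and 2352 and 2212 TPM in co-cultured organoids, a ratio of 13.4 between the means of both cultures. The order of the trefoil genes therefore turned over, with *Tff2* the highest in fresh DCs and EM organoids and *Tff3* in co-cultured organoids. In GENCODE M21, *Tff1* shares 221 exon bases with *Gm15318* on the other strand, and counting ignored strand. The length that gave whole reads for *Tff1*, 474 bases, is shorter than the 703 bases of that annotation. Whether the shared stretch was counted for *Tff1* is therefore not known.

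The genes that flank the cluster had low levels in co-cultured organoids. *Abcg1*, next to *Tff3*, had 2.97 and 2.77 TPM there against 15.5 and 21.1 TPM in EM organoids, and *Tmprss3*, next to *Tff1*, had 0.19 and 2.30 TPM against 0 and 0. Beside the *Chil* genes, *Chia1* had 2.82 and 0.77 TPM in co-cultured organoids, and *Chil6* was listed at 0 in all 6 ductal samples.

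**Figure D1:**
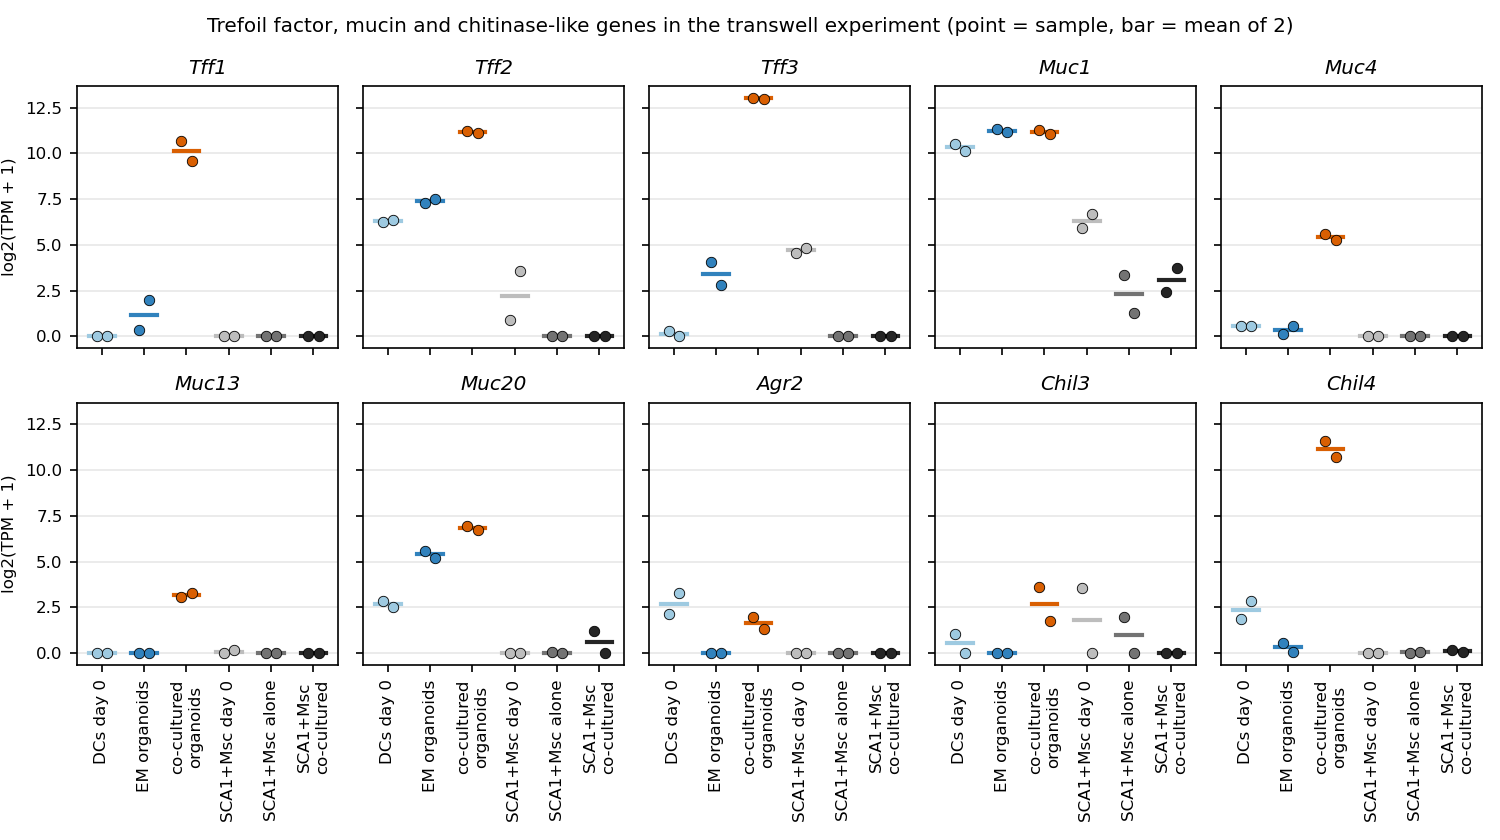
Level of the 10 genes in the 12 transwell samples as log2(TPM + 1), with a point for each sample and a bar for the mean of the 2 replicates. *Chil4*, *Tff3*, *Tff1*, *Muc4* and *Muc13* reach their highest level in co-cultured organoids with the other groups far below, whereas *Muc1* has nearly the same level in both kinds of organoid.

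Among the mucins, *Muc1* (chr3:89229057-89233381) did not separate the cultures. Its levels were 1443 and 1142 TPM in fresh DCs, 2557 and 2271 TPM in EM organoids and 2521 and 2160 TPM in co-cultured organoids, and the samples of both cultures overlapped with a ratio of means of 0.97. *Muc4* (chr16:32735886-32782391) had 0.48 and 0.48 TPM at day 0, 0.08 and 0.49 TPM in EM organoids and 47.8 and 36.8 TPM in co-cultured organoids. *Muc13* (chr16:33794037-33819934) was listed at 0 in the 4 samples of fresh DCs and EM organoids and reached 7.36 and 8.56 TPM in co-cultured organoids. This is at least 51.4-fold above EM organoids, computed against the floor of 3 reads per library. *Muc4* and *Muc13* thus had 1 pattern, at or near 0 in both other ductal groups, at levels far below those of *Muc1*.

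*Muc20* (chr16:32777419-32797435) differed between all 3 ductal groups. It had 6.09 and 4.64 TPM at day 0, 47.0 and 35.5 TPM in EM organoids and 122 and 106 TPM in co-cultured organoids, without overlap of the groups, and co-cultured and EM organoids differed 2.76-fold in their means. *Muc20* and *Muc4* lie on opposite strands and share 627 exon bases, and *Muc13* shares 184 with *Gm15657*, so a part of their reads cannot be assigned. *Tnk2*, the next gene beside *Muc4*, had 4.46 and 3.37 TPM at day 0, 8.54 and 5.93 TPM in EM organoids and 42.3 and 48.7 TPM in co-cultured organoids. *Agr2* (chr12:35992907-36004087) took another course, with 3.42 and 8.54 TPM at day 0, 0 and 0 TPM in EM organoids and 2.94 and 1.44 TPM in co-cultured organoids. Co-cultured organoids were therefore at least 6.02-fold above EM organoids by the same floor and below both day 0 samples.

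In 9 of the 10 genes both co-cultured samples lay above both EM samples, and only *Muc1* overlapped. The share of all genes without such overlap was not computed. Of all 18135 genes tested, 5.72% were called higher and 7.20% lower in co-cultured than in EM organoids (12.9% in all, limma, adjusted p under 0.05). That is a share of calls and another measure than overlap. The 10 genes were chosen on this contrast, and nothing can be read from how many of them lie apart. The median log2 fold change of all genes was -0.13. Taken by their differences, the 10 genes ran from *Chil4*, *Tff3* and *Tff1*, through *Muc4* (5.08), *Tff2* (3.74), *Muc13* (3.16), *Chil3* (2.69), *Agr2* (1.63) and *Muc20* (1.45), to *Muc1* (-0.05). The differences of *Muc13*, *Chil3* and *Agr2* are against groups listed at 0 and depend on the added 1.

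Summed over the 10 genes, the level was 1531 and 1244 TPM in fresh DCs, 2777 and 2499 TPM in EM organoids and 18195 and 15126 TPM in co-cultured organoids. Co-cultured organoids thus gave 1.82% and 1.51% of all transcripts to these genes, against 0.278% and 0.25% in EM organoids. *Muc1* made most of the sum in fresh DCs and EM organoids. Without it, the sums were 87.9 and 102 TPM at day 0, 220 and 228 TPM in EM organoids and 15675 and 12965 TPM in co-cultured organoids. The trefoil genes alone reached 12382 and 11153 TPM in co-cultured organoids.

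**Figure D2:**
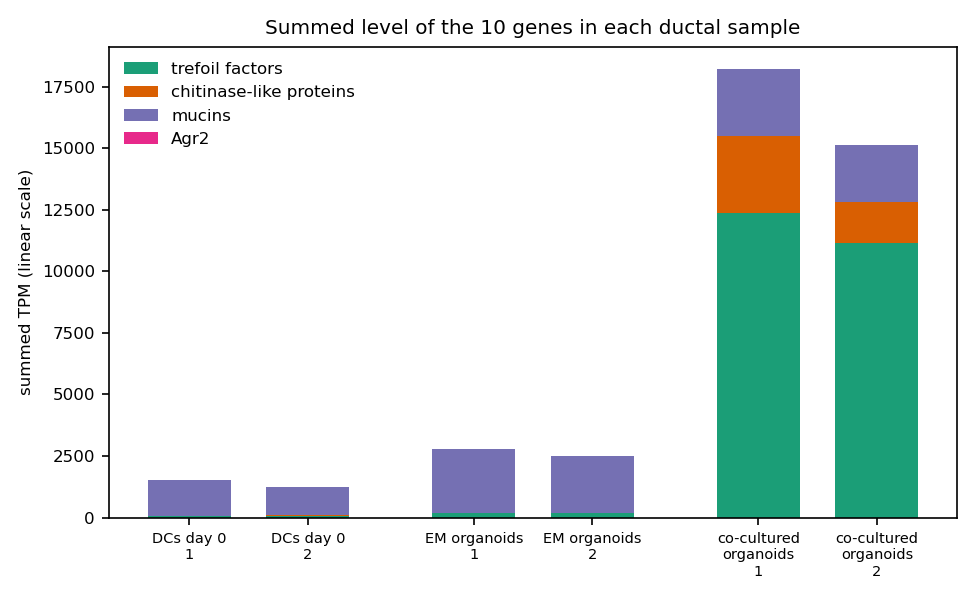
Summed TPM on a linear scale in each of the 6 ductal transwell samples, with a bar for each sample split into trefoil factors, chitinase-like proteins, mucins and *Agr2*. Mucins fill nearly the whole bar in fresh DCs and EM organoids, and trefoil factors (12382 and 11153 TPM) and chitinase-like proteins (3113 and 1659 TPM) fill most of it in co-cultured organoids.

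By rank within a sample, *Tff3* was the 9th and the 8th most abundant of 16929 and 17137 genes above 0 in co-cultured organoids, and ranked 7157 and 9731 in EM organoids. *Chil4* moved between ranks of 24 and 63 in co-cultured organoids and of 14928 and 16735 in EM organoids. *Tff2* ranked 35 and 36 and *Tff1* 68 and 158 in co-cultured organoids. *Muc1* kept a similar place, at 30 and 38 there and at 26 and 34 in EM organoids.

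Whether culture in EM moved the genes away from fresh DCs was tested for 8 genes, all but *Chil4* and *Tff3*. *Muc20* rose by 2.73 on the log2 scale (SE 0.38, limma, adjusted p 0.000335), and *Agr2* fell by 2.70 (SE 0.40, adjusted p 0.000439), from 3.42 and 8.54 TPM to none. The other 6 did not pass the test. *Muc1* (log2 fold change 0.91, SE 0.61, adjusted p 0.265) and *Tff2* (1.11, SE 0.64, adjusted p 0.199) lay above fresh DCs in both EM samples, and *Tff1* had 1.18 (SE 0.52, adjusted p 0.0956). *Muc4* (-0.22) and *Chil3* (-0.52) overlapped between the groups, and *Muc13* was listed at 0 in all 4 samples. So 2 of 8 genes were called, where 44.4% of all 18135 genes tested were, and the median was 0.46 over the 8 genes and 0.12 over all. *Tff1*, *Muc4* and *Muc13* passed the filter on low values only through the co-cultured organoids and were low in both groups here. They could hardly be called, so the count and the median are not read against those of all genes. With only the groups compared in the fit, 4 genes were called, *Muc1* and *Tff2* being the others.

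Against fresh DCs, co-cultured organoids were tested for the 5 genes that passed the filter on low values without them, *Tff2*, *Muc1*, *Muc20*, *Agr2* and *Chil3*. Of these, 2 were called higher and none lower (limma, *Agr2* lower at an unadjusted p of 0.0236), with 23.2% of all genes tested called higher and 19.1% lower (42.3% in all). *Tff2* rose by 4.85 on the log2 scale (SE 0.64, adjusted p 0.000258) and *Muc20* by 4.18 (SE 0.38, adjusted p 2.57e-05), which are 29.2-fold and 21.2-fold between the means of TPM. *Muc1* (log2 fold change 0.86, SE 0.61, adjusted p 0.298), *Chil3* (2.16, SE 1.09, adjusted p 0.146) and *Agr2* (-1.07, SE 0.40, adjusted p 0.0547) did not pass. The co-cultured samples are those on which the genes were chosen, so that this count is not independent of the choice, and both cultures were compared with the same 2 samples of fresh DCs.

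*Tff1*, *Muc4* and *Muc13* passed the filter only through the co-cultured organoids, in which they are high, and are given by their values without a test, as are *Chil4* and *Tff3*. *Tff1* was at least 1190-fold and *Muc13* at least 50.4-fold above fresh DCs, computed against the floor of 3 reads per library, and *Muc4* was 88.2-fold above them in its mean. *Chil4* and *Tff3* stood 8.80 and 12.86 above fresh DCs in log2(TPM + 1). None of these genes overlapped between the groups. How many of all genes lacked such overlap was not computed, so nothing is read from this.

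Genes that build or accompany mucus were compared between co-cultured and EM organoids from 6 lists of 91 genes, of which 59 passed the filter. The lists were drawn up with results of this contrast known. Their counts and p-values are therefore a description, and nothing can be read from the counts beside the share of all genes. Of the 59 genes, 18 were higher in co-cultured organoids and 1 was lower, beside 5.72% and 7.20% of all genes tested, with a median log2 fold change of 0.04 over the 59 genes and of -0.13 over all genes tested. Without the first co-cultured sample 11 in place of 19 were called. Of the 18, *Chst4*, *Clca1* and *Ern2* passed the filter on low values only through the co-cultured organoids and are given below by their values without a p-value. Of the enzymes of mucin O-glycosylation, 5 of 17 rose and none fell, with a median of 0.12. *Gcnt3* and *Gcnt1*, which branch the core of O-glycans, rose by 2.63 (SE 0.34, adjusted p 0.001) and 2.39 (SE 0.51, adjusted p 0.0137), the former from 36.2 and 55.7 TPM to between 215 and 372 TPM. *Chst4*, a sulfotransferase, went from 0 in both EM samples to 15.8 and 19.0 TPM. *B3gnt3*, which extends O-glycans, rose by 1.98 (SE 0.37, adjusted p 0.00737) and *Galnt3*, which starts them, by 1.61 (SE 0.45, adjusted p 0.045). *Galnt3* had 91.8 and 96.1 TPM in fresh DCs, 35.0 and 38.7 TPM in EM organoids and 113 and 116 TPM in co-cultured organoids.

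Of secretory lineage factors and goblet cell products, 6 of 14 rose and 1 fell, with a median of 0.56. *Clca1*, a secreted goblet cell product, had 0 and 0.37 TPM in EM organoids and 127 and 470 TPM in co-cultured organoids. *Fcgbp*, a mucus protein that binds to the Fc part of IgG, went from 4.79 and 5.79 TPM to 117 and 138 TPM (log2 fold change 4.35, SE 0.27, adjusted p 1.27e-05, limma). *Spink4*, a protease inhibitor of goblet cells, rose from a range of 192 to 197 TPM to one of 817 to 1140 TPM (2.30, SE 0.56, adjusted p 0.0263), and *Ern2*, a stress sensor of mucus-secreting cells, had 0 in both EM samples and 2.94 and 6.13 TPM. *Xbp1*, a transcription factor of secretory cells, was the gene that fell, from 2581 and 2588 TPM to 798 and 810 TPM, a change of -1.68 on the log2 scale (SE 0.08, adjusted p 2.3e-06). *Dmbt1*, a further gene of this list, was not called (0.62, SE 1.16, adjusted p 0.858, limma). It had 168 and 141 TPM in fresh DCs, 1240 and 1320 TPM in EM organoids and 1835 and 2114 TPM in co-cultured organoids.

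**Figure D3:**
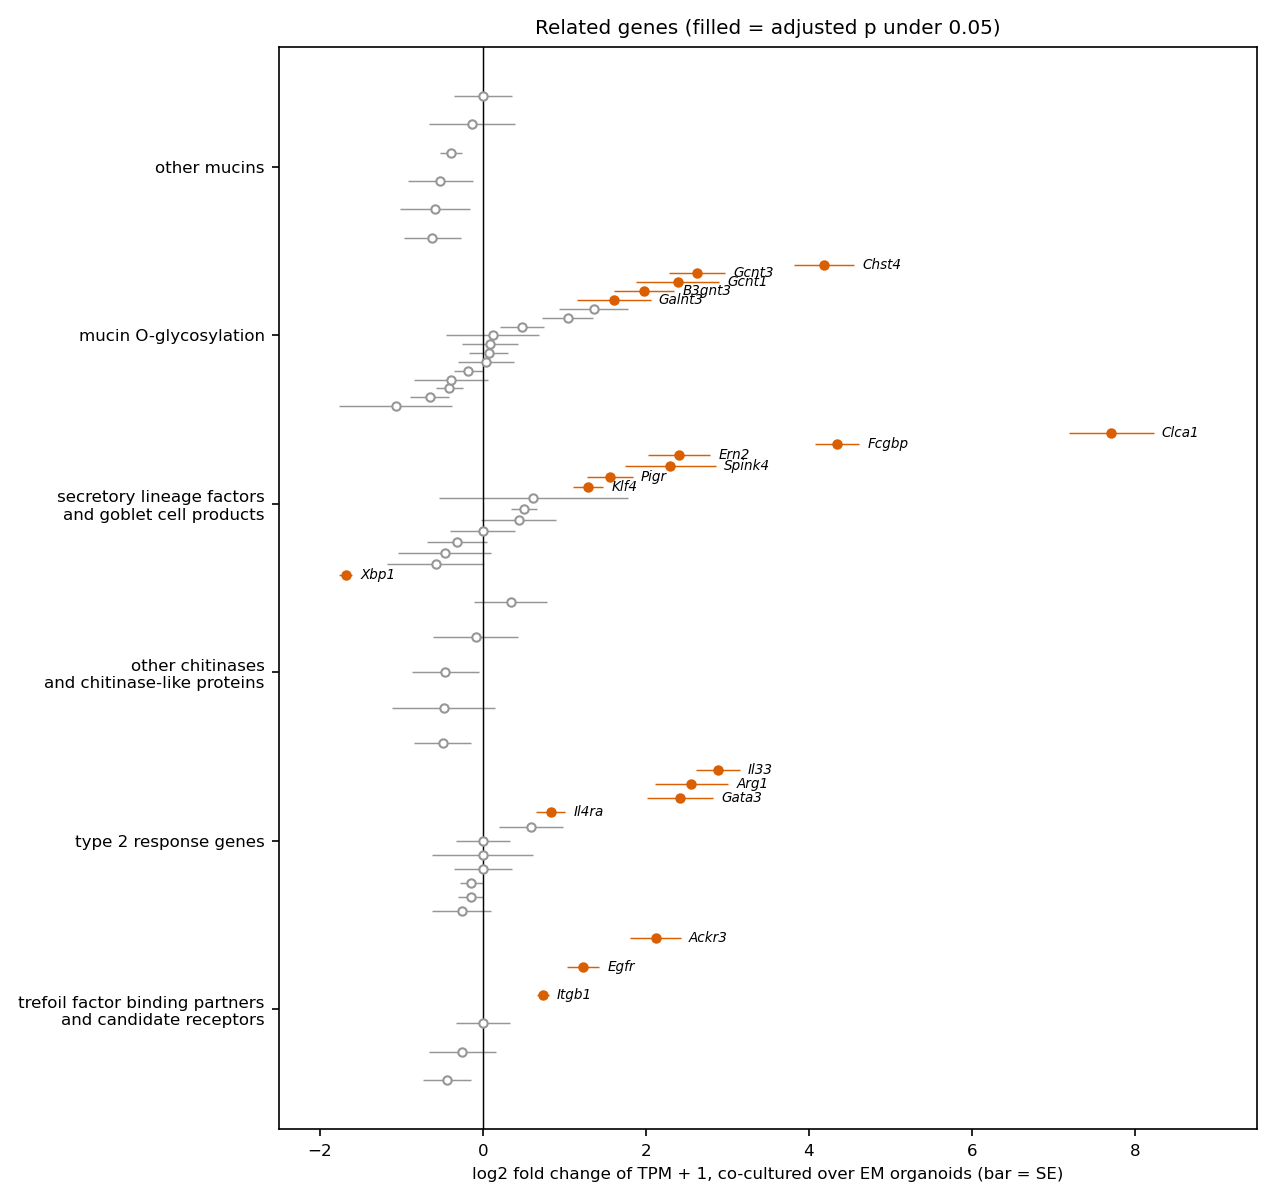
Log2 fold change of TPM + 1 in co-cultured over EM organoids for the 59 related genes that were tested, by list, with a line for 1 SE and filled points for genes with an adjusted p under 0.05. The filled points lie to the right of 0 in 4 lists, with *Xbp1* at -1.68 on the left, and neither other mucins nor other chitinases have one. *Chst4*, *Clca1* and *Ern2* are filled although they passed the filter on low values only through the co-cultured organoids. The lists were drawn up with results of this contrast known, so the filled points are a description.

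The gel-forming mucins that goblet cells are known for stayed near 0. These genes are named for their known role, after their values were seen. *Muc2* reached at most 0.22 TPM, *Muc5ac* 0.52 TPM and *Muc5b* 0.67 TPM in any of the 6 ductal samples, and *Spdef* and *Atoh1*, transcription factors of the secretory lineage, were listed at 0 in all 4 organoid samples. Of the other mucins, 0 of 6 tested were called between the cultures (limma, 1 at an unadjusted p under 0.05), and their median was -0.45. Other chitinases and chitinase-like proteins had 0 of 5 called (limma, 0 also at an unadjusted p under 0.05) and a median of -0.46. *Chil1* was at 59.3 and 77.2 TPM in EM organoids and 40.2 to 58.0 TPM in co-cultured organoids.

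Of genes of the type 2 response, 4 of 11 rose and none fell, with a median of 0. *Il33*, an alarmin, went from 4.91 and 6.94 TPM to between 44.3 and 55.1 TPM (log2 fold change 2.88, SE 0.27, adjusted p 0.000162, limma). SCA1+Msc had more of it, with 130 and 107 TPM at day 0, 179 and 284 TPM alone and 283 and 403 TPM in co-culture. *Il4ra*, a receptor chain for IL-4 and IL-13, had a change of 0.83 (SE 0.18, adjusted p 0.0129). Its levels were 91.2 and 74.2 TPM in fresh DCs, 46.1 and 59.7 TPM in EM organoids and 109 and 81.5 TPM in co-cultured organoids. *Arg1* (4.76 and 5.07 TPM) and *Gata3* (4.02 and 4.70 TPM) were called higher with both EM samples at 0 (adjusted p 0.00537 and 0.00456). Of binding partners and candidate receptors of trefoil factors, 3 of 6 rose, namely *Ackr3* (2.12, SE 0.31, adjusted p 0.00197), *Egfr* (1.23, SE 0.20, adjusted p 0.00386) and *Itgb1* (0.74, SE 0.07, adjusted p 0.000179), with a median of 0.37. *Ackr3* had 21.9 and 10.3 TPM in co-cultured organoids and 210 to 300 TPM in SCA1+Msc. *Itgb1* had 532 and 529 TPM in fresh DCs, 325 and 348 TPM in EM organoids and 569 and 556 TPM in co-cultured organoids. The co-cultured level of *Itgb1* was thus near that of fresh DCs, and the EM level was the low one.

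Markers of other cell types were read in the same samples. Before culture, DCs had been sorted as EpCAM+ cells without CD31, CD45 or CD11b, a gate meant to remove blood and endothelial cells. The 12 macrophage markers summed to 24.3 and 28.5 TPM in EM organoids, 77.6 and 99.5 TPM in co-cultured organoids and 132 and 130 TPM in fresh DCs. *C1qa*, *C1qb*, *Clec4f*, *Cd5l*, *Adgre1*, *Vsig4* and *Timd4*, which mark macrophages of the liver, were listed at 0 in all 4 organoid samples, with 5 and 3 of the 12 markers above 0 in co-cultured organoids. *Cd68* (57.2 and 87.3 against 20.6 and 19.6 TPM, adjusted p 0.046, limma) and *Mrc1* (2.35 and 5.21 against 0 and 0 TPM, adjusted p 0.022) were called higher in co-cultured organoids. The 12 neutrophil markers summed to 466 and 449 TPM in EM organoids and 780 and 347 TPM in co-cultured organoids, of which *Ltf* made 661 and 337 TPM in the latter. None of 6 neutrophil, 12 mesenchymal and 10 endothelial markers tested was called (limma, 1, 0 and 0 at an unadjusted p under 0.05), with sums of 3.28 to 8.98 TPM for the last.

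The part of such cells in the *Chil4* and *Chil3* values was not tested. The ductal list held 10 of 10 markers above 0 in both cultures, with 59429 and 56079 TPM in co-cultured organoids and 56072 and 54472 TPM in EM organoids. Within it, *Krt19* (15435 and 14387 against 1791 and 1580 TPM, adjusted p 0.0158) and *Krt7* (log2 fold change 2.71, adjusted p 0.00932) were higher in co-cultured organoids, and *Sox9* was lower (-1.17, adjusted p 0.00396). Hepatocyte markers summed to 1629 and 1517 TPM in EM organoids and 186 and 380 TPM in co-cultured organoids, with only *Hamp* of 10 called, higher in the latter (adjusted p 0.00214).

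Genes with the pattern most like *Chil4* were found by Pearson's r of log2(TPM + 1) over the 12 transwell samples, which belong to 6 groups and are not independent points. Of 10590 genes ranked, *Muc4* came first (0.989), before *Anxa10* (0.988), *Gsta1* (0.986) and *Padi2* (0.985). *Anxa10*, an annexin gene known from the stomach, had 238 and 221 TPM in co-cultured organoids against 3.85 and 1.05 TPM in fresh DCs and 0.80 and 0 TPM in EM organoids. *Tff1* ranked 29 (0.962) and *Tff3* ranked 85 (0.866). Lower came *Tff2* at 184 (0.779), *Muc20* at 251 (0.738), *Muc1* at 1016 (0.541) and the copy *Chil3* at 1066 (0.534). *Chil4* and *Tff3* were chosen for their levels in the organoids, and *Muc4* passed the filter only through the co-cultured organoids. The ranks are therefore a description of that choice. For *Tff3*, which is also present in SCA1+Msc at day 0, the nearest were *Tigit* (0.975), *Endod1* (0.955), *Areg* (0.952) and *Tmsb10* (0.952). Here *Tff1* ranked 23 (0.92), *Muc4* 59 (0.902), *Chil4* 84 (0.866), *Tff2* 245 (0.746), *Muc20* 312 (0.71), *Chil3* 668 (0.59) and *Muc1* 835 (0.553). *Areg*, a ligand of the EGF receptor, had 556 and 502 TPM in co-cultured organoids and 30.2 and 12.0 TPM in EM organoids.

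The stroma of the same experiment gives the background for the ductal values. Most of the genes were at or near 0 there, whereas *Muc1* and *Tff3* were well above 0 in SCA1+Msc at day 0. Fresh DCs were first compared with SCA1+Msc at day 0, in which 6 of 10 genes were called, 5 of them higher in DCs, where 46.1% of all genes tested were called. The 10 genes, here and in the next comparisons, include *Tff1*, *Muc4* and *Muc13*, which passed the filter only through the co-cultured organoids. They were at or near 0 in these samples and could hardly be called, so such counts are not read against the share of all genes. *Chil4* (2.60 and 6.24 against 0 and 0 TPM, adjusted p 0.00112, limma), *Agr2* (adjusted p 0.000391) and *Muc20* (adjusted p 0.000349) had no read in SCA1+Msc at day 0. *Muc1* was at 60.5 and 103 TPM there, which gives 4.01 on the log2 scale (SE 0.61, adjusted p 0.000495), and *Tff2* at 0.83 and 10.9 TPM, which gives 4.08 (SE 0.64, adjusted p 0.00061). *Tff3* alone was lower in DCs, with 22.7 and 27.4 TPM (69 and 81 reads) in SCA1+Msc at day 0 against 1 and 0 reads in DCs (-4.55, SE 0.35, adjusted p 7.23e-06).

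SCA1+Msc at day 0 held transcripts of other cells beside these values. Ductal markers summed to 2033 and 4902 TPM there, hepatocyte markers to 23579 and 18869 TPM against 4361 and 5494 TPM in fresh DCs, and macrophage markers to 217 and 208 TPM. Their part in the levels of *Muc1*, *Tff2* and *Tff3* was not tested. After 15 days alone in MM, *Tff3* (-4.70, SE 0.35, adjusted p 8.13e-06, limma), *Muc1* (-4.03, SE 0.61, adjusted p 0.000557) and *Tff2* (-2.22, SE 0.64, adjusted p 0.0186) had fallen in SCA1+Msc, 3 of 10 genes with 44.8% of all genes called. The sums of hepatocyte markers were then 56.5 and 41.9 TPM and those of ductal markers 233 and 238 TPM. The call for *Tff2* was lost without either sample cultured alone (adjusted p 0.0716 and 0.0709).

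The last comparison asks whether co-culture with DCs moved the genes in the stroma. Against SCA1+Msc cultured alone, 0 of 10 genes were called (limma, none at an unadjusted p under 0.05), where 0.127% of all genes tested were called and 1262 of 18135 had such an unadjusted p. *Tff1*, *Tff2*, *Tff3* and *Agr2* were listed at 0 in all 4 samples. *Chil4* had 0 and 1 reads in SCA1+Msc alone and 2 and 1 reads below the organoids, and *Muc1* had 9.06 and 1.39 TPM alone and 4.38 and 12.5 TPM in co-culture. The high levels of *Tff3* and *Chil4* were therefore measured on the ductal side of the insert only.

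In the healthy liver, 2 of the genes were abundant, both in DCs. *Muc1* had deposited values of 1970, 1701 and 1072 in DCs of mice A, E and F, against 7.28, 23.2 and 21.7 in PDGFRα+SCA1+, 39.4, 15.9 and 2.78 in PDGFRα+SCA1- and 0.71, 76.7 and 14.9 in PDGFRα-SCA1+ cells. *Tff2* had 97.4, 97.4 and 130 in DCs and was listed at 0 in all other samples but 1, with 0.23 in PDGFRα+SCA1- cells of mouse A. For both genes no stromal sample overlapped with a DC sample. Only 4 of the 10 genes, *Muc1*, *Tff2*, *Tff3* and *Muc13*, passed the filter on low values.

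Of these, *Tff2* passed the filter only through the 3 DC samples and *Muc13* only through the 3 samples of PDGFRα-SCA1+ cells, so that both are given by their values without a test. *Muc1* and *Tff3* remained to be tested. *Muc1* was higher in DCs by a log2 fold change of 6.53 against PDGFRα+SCA1+, 6.80 against PDGFRα+SCA1- and 6.90 against PDGFRα-SCA1+ cells (SE 1.16 each, adjusted p 0.00125, 0.000863 and 0.000842, limma). This made 1 of 2 genes called in each comparison, with 23.8%, 28.8% and 22.8% of all 17028 genes tested. The DC samples of the 3 comparisons are the same. Beside the values of *Muc1* in PDGFRα-SCA1+ cells, ductal markers summed to 126, 4640 and 582 there in mice A, E and F, and their part was not tested.

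*Muc13* was the gene with a higher level in stroma. It was listed at 0 in DCs and had 3.0, 3.0 and 2.5 in PDGFRα-SCA1+ cells (57, 66 and 48 reads), without overlap. Elsewhere it was above 0 only in PDGFRα+SCA1+ cells of mouse E (0.53). Endothelial markers summed to 9369, 10389 and 7457 in PDGFRα-SCA1+ cells against 16.0 to 38.3 in DCs. Their part in the *Muc13* values was not tested.

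*Chil4* had 0.20, 5.87 and 20.1 in DCs of mice A, E and F (4, 123 and 371 reads) and was listed at 0 in all 9 stromal samples, so that it was found only in DCs but at levels that differed widely between littermates. *Muc20* had 0.48, 1.20 and 1.63 in DCs and 0 elsewhere. Neither passed the filter, and neither was tested. *Tff3* had 0, 0 and 3.21 in DCs and 10.4, 0 and 1.60 in PDGFRα-SCA1+ cells, and its differences from DCs were not called (adjusted p 0.797, 0.558 and 0.472). *Tff1*, *Agr2* and *Chil3* were listed at 0 in DCs of all 3 mice, and *Muc4* had 1.36, 0 and 0.98 there. In stroma *Muc4* reached 1.06 in PDGFRα+SCA1- cells of mouse F, above the DCs of the same mouse.

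**Figure D4:**
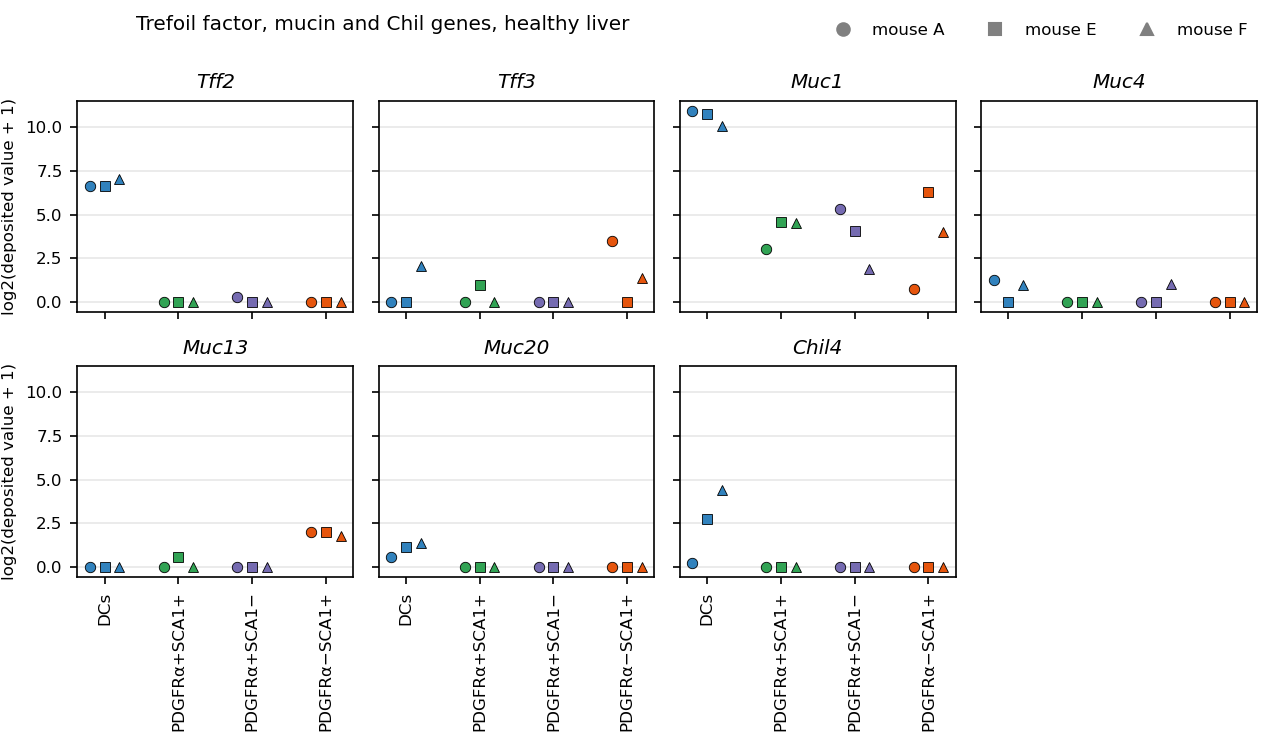
Level of 7 genes in the 12 homeostasis samples as log2(deposited value + 1), with a symbol for each mouse. *Tff2* and *Muc1* are high in DCs of all 3 mice, *Chil4* ranges from 0.20 to 20.1 in DCs and is at 0 in the stroma, and *Muc13* is above 0 in PDGFRα-SCA1+ cells of each mouse.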

How the data were processed

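RNA-seq of 24 mouse liver samples was used. Per the methods and labels, the authors aligned single-end reads of 50 bases, made with Smart-seq2, to GRCm38 with STAR 2.5.0a, dropped reads of low mapping quality and ran featureCounts 1.6.0 over exons without regard to strand. The authors deposited RPKM for the transwell samples, which were scaled here to TPM. For the homeostasis samples the values that the authors deposited are called TPM and were treated as a score, because each had been divided by a total that changes down the table and lies at 0.722 to 1.39 times TPM. They were kept as deposited, and 4 columns of population means were left out. Of the transwell symbols, 26 had become dates.

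The depth was recovered from low values as whole numbers of reads, at most 20 per gene (91.3% to 94.3% whole within 0.02 of a read), with exon lengths of GENCODE M21 on GRCm38. For *Tff1* the length that gave whole reads, 474 bases, was used in place of 703. The floor was 3 reads per library and reflects counting error alone, as PCR copies were not marked.

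Log2(value + 1) was fitted with limma 3.58.1 in R 4.3.3, 1 mean per group over the 12 samples of an experiment, eBayes with a trend, two-sided tests and Benjamini-Hochberg adjustment over all genes tested (0.05). Tested genes reached 1 in no fewer than 3 (homeostasis) or 2 (transwell) samples, and the fit was tested on simulated data. No p-value is given where a gene passed this filter only through the group of a comparison in which it is high, although counts over lists and alternatives hold such genes. The 10 genes and all lists were chosen with earlier results of these data known. Beside the 10 genes, named genes came from up to 4 called genes of each list and comparison with the largest change and no overlap. Others came from list genes with a mean of at least 100 TPM in a ductal group, and not all of these are named. For *Chil4* and *Tff3* the 4 most similar genes were named, among genes with at least 10 TPM in at least 2 samples and without predicted genes. Alternatives were a pseudocount of 0.1, other filters, quantile normalization, RPKM as deposited, the reused totals undone, eBayes without trend, only the groups compared, a replicate block, and each sample left out. For single genes the refits with RPKM as deposited and with the reused totals undone were added after seeing the data. Letters A, E and F mark the same mouse in every population, which pairs these samples. The correlation of deviations from the group means within a mouse was 0.01 to 0.097 across genes.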

Additional observations from a re-analysis of the deposited data

How the results depend on the processing

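Counts of the 10 genes called stayed within 1.5 times under most alternatives. These counts hold all genes that passed the filter, *Tff2* and *Muc13* in the homeostasis and *Tff1*, *Muc4* and *Muc13* in the transwell experiment included, which passed it through a single group. Of 4 such genes in DCs against PDGFRα+SCA1+ and against PDGFRα+SCA1- cells, 1 to 2 were called with each sample left out. For EM organoids against fresh DCs, 1 gene was called with a minimum of 5, 4 with only the groups compared, and 2 to 3 with each sample left out. For co-cultured organoids against fresh DCs, 5 of 8 were called, and 3 to 6 with each sample left out, and for related genes in co-cultured against EM organoids 11 to 16. The difference of *Chil4* between co-cultured and EM organoids was 12.92 with a pseudocount of 0.1, 9.54 with RPKM as deposited and 10.39 to 11.29 with each sample left out, and that of *Tff3* was 8.96 to 10.2.

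With the mouse or the replicate number as a replicate block, the counts of genes called also hold genes that passed the filter through a single group. They were 2, 2 and 3 in the homeostasis and 2, 5, 6, 3 and 0 in the transwell experiment, and 18 related genes were called. Each gene tested kept its side of the threshold and its direction. In the transwell experiment samples share only a number, and deviations of same-numbered samples correlated at 0.004 to 0.03.

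Directions turned only in genes that were not called. *Muc4* in EM organoids against fresh DCs was at 0.11 with quantile normalization and 0.01 to -0.45 without either EM sample. *Chil3* in fresh DCs against SCA1+Msc at day 0 was at 0.52 without the first SCA1+Msc sample, and -3.03 (adjusted p 0.027, limma) without the second. *Chil3* in SCA1+Msc alone against day 0 ran from -2.58 to 0.98 without either day 0 sample and was at 0.18 without the second sample alone. In co-cultured SCA1+Msc against those alone, *Muc1* ran from -0.24 to 1.84 without either sample alone and *Muc20* from -0.02 to 1.17 without either co-cultured sample. The cause of these turns was not tested. Quantile normalization moved the median of all genes from -0.13 to -0.01 in co-cultured against EM organoids, from 0.28 to 0.10 in DCs against PDGFRα+SCA1+ and from 0.47 to 0.13 against PDGFRα+SCA1- cells, where the share of calls that are higher in DCs went from 65.4% to 53.9%.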

Other observations

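Genes of the related lists also differed between organoids and fresh DCs. The lists were drawn up with results of the organoids known, so the counts below are a description. Of 59 related genes tested, 27 were higher and 11 lower in co-cultured organoids than in DCs at day 0, and 16 were higher and 11 lower in EM organoids, where 42.3% and 44.4% of all genes tested were called in the same comparisons, which share the day 0 samples (limma). Enzymes of mucin O-glycosylation had 11 of 17 higher and 3 lower in co-cultured organoids and 8 higher and 2 lower in EM organoids. *Gcnt3*, at 0 to 0.14 TPM in fresh DCs, had 36.2 and 55.7 TPM in EM organoids (log2 fold change 5.43, SE 0.34, adjusted p 2.24e-06) and between 215 and 372 TPM in co-cultured organoids (8.06, SE 0.34, adjusted p 3.42e-07). *Spink4* followed the same order, with 21.4 to 28.0, 192 to 197 and 817 to 1140 TPM.

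Outside these lists of enzymes and goblet cell products, *Chil1*, a relative of *Chil3* and *Chil4* that mammals share, went from 0.40 to 1.24 TPM in fresh DCs to 59.3 to 77.2 TPM in EM organoids (5.28, SE 0.63, adjusted p 0.000124, limma) and 40.2 to 58.0 TPM in co-cultured organoids (4.8, SE 0.63, adjusted p 0.00024). *Muc6*, a gel-forming mucin gene, fell from between 7.76 and 13.3 TPM to at most 1.32 TPM in EM organoids (-2.83, SE 0.43, adjusted p 0.000518) and 0.06 TPM in co-cultured organoids (-3.43, SE 0.43, adjusted p 0.000175). *Arg1*, which encodes arginase 1, an enzyme of hepatocytes and of macrophages in type 2 responses, fell from 34.6 and 53.1 TPM to 0 in EM organoids and to 4.76 and 5.07 TPM in co-cultured organoids (adjusted p 1.28e-05 and 0.000708), while the summed hepatocyte markers went from 4361 and 5494 TPM to 1629 and 1517 and to 186 and 380 TPM. Their part in the *Arg1* values was not tested.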
